A study of Mus musculus with 18 samples.

Results

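In mouse colon RNA, 9 genes of the epithelial junction were examined: Tjp1, Tjp3, Cgn, Ocln, Marveld2, Marveld3, F11r, Cdh1 and Epcam. They were chosen by name, as tight junction scaffold, MARVEL protein and cell adhesion genes, and make up 9 of the 47729 genes in the count table. All 9 passed the filter on low counts, as did 16937 genes in all, and each was covered by 445 to 59065 reads per library. RNA-Seq was done on 18 colon libraries in 6 groups of 3, which cross 2 genotypes with 3 treatments.

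The genotypes were WT and Cldn2KO, which lacks claudin-2, a claudin that forms cation and water pores in the tight junction. The treatments were untreated control, recovery after colitis induced by dextran sulfate sodium (DSS, given in drinking water), and the carcinogen azoxymethane followed by DSS (AOM/DSS), which gives tumours on a background of colitis. The AOM/DSS protocol gave 1 dose of 10 mg/kg AOM and 3 cycles of 2.5% DSS. It is attached to every sample's label, controls included, so the dose and length of the recovery protocol are not given in the sources used here, nor is the age of the animals of each library. The study used mouse lines on a C57BL/6 background, with littermates as controls. No label ties a library to an animal, so the p-values measure the spread between libraries only.

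Library totals ran from 17.6 to 27.4 M counts, with a median of 19.6 M. Cldn2 was present at 44.5 to 504 CPM (counts scaled to library size, per M) in the 9 WT libraries and at 0.0555 to 0.557 CPM in the 9 Cldn2KO libraries, as the genotype labels require. Columnar epithelial markers were high in every library, with summed levels of 11742 to 23648 CPM over 11 genes. Markers of stratified squamous epithelium summed to 4.78 to 19.2 CPM over 10 genes in control and recovery libraries and to 9.97 to 66.6 CPM after AOM/DSS, where Krt14 reached 37.6 and Krt13 24.1 CPM, while Trp63 did not exceed 0.52 CPM in any library. Libraries stood apart in 2 further ways that matter below. The 8 posterior Hox genes, which mark the distal end of the gut, summed to 2.26 to 4.82 CPM in all 6 recovery libraries and to 14.6 CPM in WT control replicate 2, against at least 525 CPM in the other 11 libraries. The study names the distal colon as the source of the RNA from mice in recovery, and describes the AOM/DSS material only as colon RNA. Whether the libraries low in posterior Hox genes came from another stretch of colon was not tested. Where a group is all low and the other all high in these genes, treatment and position along the gut cannot be told apart. Xist, expressed from the inactive X chromosome of females, was high in 6 libraries, namely replicates 2 and 3 of WT recovery, Cldn2KO recovery and Cldn2KO AOM/DSS, and near 0 elsewhere.

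Junctions seal neighbouring epithelial cells together in layers. In the tight junction, claudins and the MARVEL proteins cross the membrane, and the cytoplasmic plaque proteins ZO-1 (Tjp1), ZO-3 (Tjp3) and cingulin (Cgn) tie them to actin and myosin. Below it lies the adherens junction, where E-cadherin (Cdh1) joins cells through catenins. Colonic epithelium renews from crypts and must rebuild these contacts after DSS ulceration.

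The genes lie on 7 chromosomes. In GRCm38 coordinates of the deposited table, Tjp1 is at chr7:65296165-65527781, Tjp3 at chr10:81273207-81291267, Cgn at chr3:94760069-94786492, Ocln at chr13:100496507-100552718, Marveld2 at chr13:100595957-100616971 and Marveld3 at chr8:109947914-109962203, all on the minus strand. F11r at chr1:171437535-171464603, Cdh1 at chr8:106603351-106670246 and Epcam at chr17:87635979-87651106 are on the plus strand. Ocln and Marveld2, both MARVEL genes, are neighbours with 43238 bases between them. Tjp3 overlaps Apba3 on the opposite strand, and since the counting is not stated to use strand, reads of the overlap cannot be assigned with certainty.

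Promoter sequence was found in RefSeq (GRCm38.p6) for 7 of the 9 genes, those other than Cdh1 and Marveld3. Shown here are the 250 bases before the start of the plaque genes Tjp3 and Cgn, which were called between genotypes, and of Ocln and Epcam, which passed the test in no comparison. Tjp3 and Ocln have a further RefSeq start each, and the entry nearest the deposited gene start is given. Capitals mark 2 motifs on either strand: the E-box CACCTG, bound by Snail and Zeb repressors, and the GC box GGGCGG, bound by Sp factors.
Tjp3, chr10:81291268-81291517, minus strand: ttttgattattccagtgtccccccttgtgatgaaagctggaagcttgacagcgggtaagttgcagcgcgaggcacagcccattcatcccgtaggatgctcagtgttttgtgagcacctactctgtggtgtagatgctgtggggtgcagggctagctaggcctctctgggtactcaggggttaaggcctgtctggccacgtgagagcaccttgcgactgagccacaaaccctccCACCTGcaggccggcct
Cgn, chr3:94786483-94786732, minus strand: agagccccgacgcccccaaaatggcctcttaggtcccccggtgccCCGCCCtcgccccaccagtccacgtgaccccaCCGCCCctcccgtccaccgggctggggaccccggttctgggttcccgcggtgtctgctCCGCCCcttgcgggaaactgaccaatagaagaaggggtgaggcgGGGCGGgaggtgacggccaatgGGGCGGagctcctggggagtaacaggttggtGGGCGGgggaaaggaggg
Ocln, chr13:100552719-100552968, minus strand: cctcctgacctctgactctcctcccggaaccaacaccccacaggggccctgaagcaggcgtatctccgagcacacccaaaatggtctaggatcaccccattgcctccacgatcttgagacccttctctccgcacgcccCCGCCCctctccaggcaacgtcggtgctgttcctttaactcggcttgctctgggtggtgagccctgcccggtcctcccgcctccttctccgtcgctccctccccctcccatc
Epcam, chr17:87635729-87635978, plus strand: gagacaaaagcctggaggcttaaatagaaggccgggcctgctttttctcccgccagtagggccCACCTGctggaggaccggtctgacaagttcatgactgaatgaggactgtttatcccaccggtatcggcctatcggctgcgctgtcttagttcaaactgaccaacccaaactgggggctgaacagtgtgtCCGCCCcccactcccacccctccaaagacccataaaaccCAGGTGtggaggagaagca

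The Cgn stretch held 6 GC boxes and no CACCTG, in a sequence of 70.4% GC. Tjp3 was the reverse, with 1 CACCTG starting 17 bases before the gene start, no GC box and 57.2% GC. Ocln held 1 GC box and no CACCTG, and Epcam held 2 CACCTG and 1 GC box. At the further start of Ocln, 220 bases from the deposited one, the stretch held 2 CACCTG and 1 GC box. That of the further Tjp3 start held 1 CACCTG and no GC box. Over 32851 mouse promoters of the same length, 17.2% held CACCTG on either strand and 32.7% the GC box. A match to these letters is a description of the sequence and not a measured site.

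Levels per length of transcript differed widely between the genes. Epcam, which encodes a homophilic adhesion protein of epithelial cells, had a median of 1008 RPKM (CPM per kilobase of exon) over the 18 libraries, and Cdh1 had 191 RPKM. F11r (JAM-A, an immunoglobulin-type adhesion protein) followed at 96.4 RPKM and Tjp3 at 64.3 RPKM. Ocln (occludin) stood at 36.9 RPKM, Marveld3 at 25.8 RPKM, Cgn at 25.7 RPKM, Tjp1 at 15.9 RPKM, and Marveld2 (tricellulin, of tricellular contacts) was lowest, between 8.61 and 14.3 RPKM. The abundant Epcam varied least, with its highest library at 1.34 times its lowest in CPM, and Tjp1 varied most at 2.89 times. Tjp1 and Cdh1 ran closest together across the libraries (Pearson r = 0.885 over 18 libraries), whereas Cgn and Marveld2 were the least alike (r = -0.17). The median over the 36 pairs was 0.348. These correlations include the group differences and share the same libraries, and are given as descriptions.

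**Figure D1:**
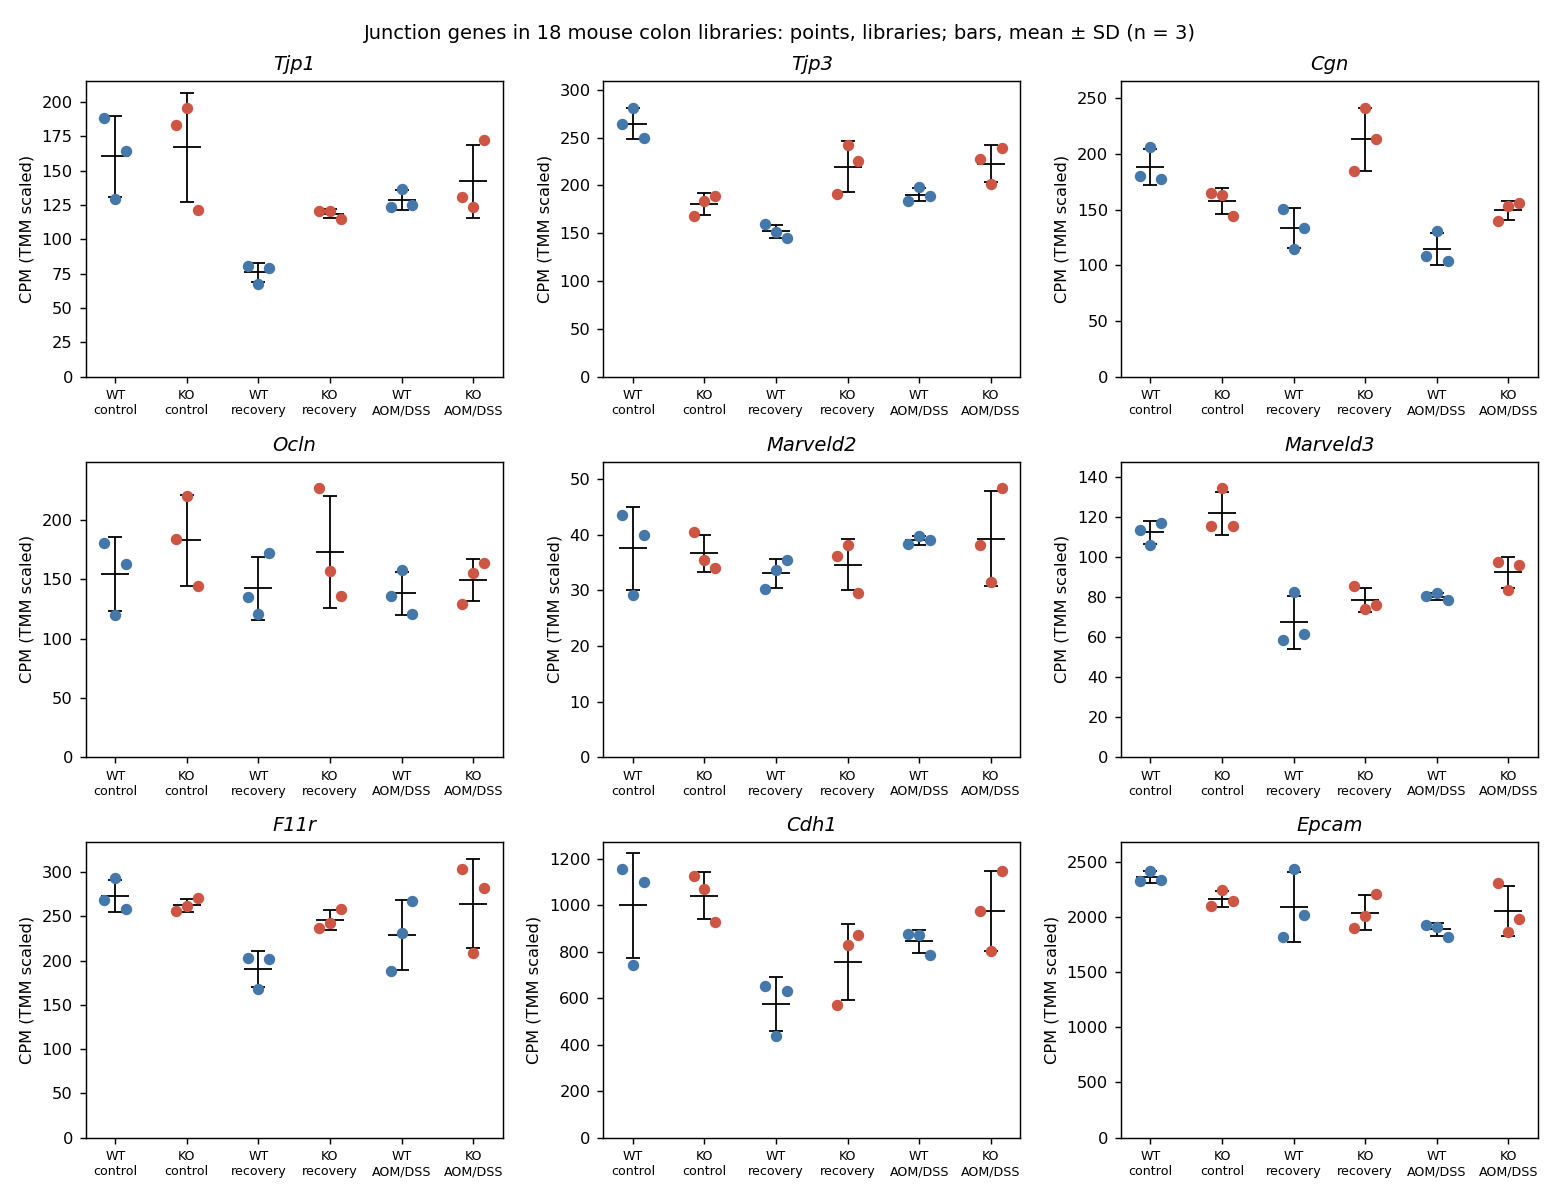
Level of each of the 9 genes in CPM (vertical axes, from 0) in the 18 libraries, by group. Points are libraries (blue, WT; red, Cldn2KO) and bars are the mean ± SD of 3. Tjp1 in WT recovery (67.8 to 80.7 CPM) lies under every other library, and Tjp3 has its highest group in WT controls (249 to 281 CPM).

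Recovery in WT mice came with lower levels of 6 of the 9 genes and higher levels of none, namely the plaque genes Tjp1, Tjp3 and Cgn, the MARVEL gene Marveld3, F11r and Cdh1. Over all genes tested, 12.2% were called lower and 22.2% in either direction (edgeR quasi-likelihood test, adjusted p under 0.05). The median log2 fold change of the 9 genes was -0.52, against -0.04 over all genes. In bulk RNA, fewer epithelial cells and less RNA per cell cannot be told apart, and Tjp1 and F11r are also made by endothelium. The 6 endothelial markers summed to 15.3 to 30.6 CPM in WT recovery against 50.4 to 67.7 CPM in WT controls, with 3 called lower and a median log2 fold change of -1.20, and their part was not tested. Of the 11 columnar epithelial markers 4 were lower in the same comparison and none higher, with a median log2 fold change of -0.41.

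Tjp1, whose ZO-1 protein organizes the plaque, was at 188, 129 and 164 CPM in the WT controls and at 80.7, 67.8 and 79.1 CPM in WT recovery. The groups did not overlap, as was so for all 6 genes called and for 20.9% of all genes in that direction. Recovery lay at 0.473 of the control level, the widest gap of the 9 genes. Its log2 fold change was -1.08 (95% interval -1.47 to -0.69, edgeR adjusted p = 0.0016). Tjp3, for the related scaffold ZO-3, was at 264, 281 and 249 CPM in controls and at 159, 151 and 145 CPM in recovery. All 3 recovery libraries were again lower, by 0.80 on the log2 scale (SE 0.122, edgeR adjusted p = 0.000996).

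Cgn, the gene for the myosin-binding plaque protein cingulin, was at 180.3, 207 and 177 CPM in WT controls and at 151, 115 and 134 CPM in recovery. The groups lay apart by a narrower margin, at -0.50 on the log2 scale (SE 0.142, edgeR adjusted p = 0.0218). Marveld3 encodes a MARVEL protein of the tight junction strand and was at 114, 106 and 117 CPM in controls against 58.4, 82.5 and 61.5 CPM. All 3 recovery libraries lay lower, and it fell by 0.74 on the log2 scale (SE 0.134, edgeR adjusted p = 0.00217).

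F11r stood at 268, 293 and 258 CPM in WT controls and at 203, 168 and 202 CPM in recovery, without overlap. It fell by 0.52 on the log2 scale (SE 0.157, edgeR adjusted p = 0.0283). Cdh1 was at 1157, 741 and 1101 CPM in controls, where replicate 2 lay well under replicates 1 and 3, and at 651, 439.6 and 631 CPM in recovery. The 2 groups still did not overlap, and the log2 fold change was -0.80 (SE 0.219, edgeR adjusted p = 0.0179).

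The controls of this comparison did not share 1 Hox state with the recovery libraries, apart from WT control replicate 2. The recovery mean relative to that library was -0.77 for Tjp1, -0.89 for Tjp3, -0.63 for Cgn, -0.65 for Marveld3, -0.62 for F11r and -0.37 for Cdh1 on the log2 scale, and -0.21 for Epcam, 0.25 for Ocln and 0.18 for Marveld2, with no test for 1 library. With the Hoxb13 state as a covariate, which that library alone identifies, Tjp3 (adjusted p = 0.0064), Cgn (0.0498) and Marveld3 (0.0388) were called and Tjp1 (0.05001), F11r (0.078) and Cdh1 (0.409) were not. Tjp1, Tjp3 and Marveld3 were called on leaving out each library in turn. The Cgn call was lost without WT control replicate 1 (adjusted p = 0.0513) or WT recovery replicates 2 (0.0712) or 3 (0.0645). Cdh1 was lost without WT control replicates 1 (0.0814) or 3 (0.0607) or WT recovery replicate 2 (0.0686), and F11r was lost without each library (0.0502 to 0.0932) except WT recovery replicate 1. In recovery, smooth muscle markers summed to 886 to 2438 CPM against 4267 to 6310 CPM in WT controls, leukocyte markers to 118 to 165 against 776 to 915 CPM (of which Jchain made up 689.5 to 824 CPM), and fibroblast markers to 153 to 230 against 393 to 514 CPM. The part of these differences in the junction gene levels was not tested.

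In Cldn2KO mice the recovery pattern was mixed, with 1 gene higher, 1 lower and 7 not called, against 19.4% of all genes called. Cgn rose, from 165, 163 and 144 CPM in Cldn2KO controls to 185, 241 and 213 CPM in recovery. Every recovery library lay above every control, and the log2 level was higher by 0.44 (SE 0.142, edgeR adjusted p = 0.042). Marveld3 fell as it did in WT, from 116, 134 and 116 CPM to 85.7, 74.2 and 76.4 CPM. Its groups did not overlap either, and the log2 fold change was -0.63 (SE 0.133, edgeR adjusted p = 0.00452).

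Among those not called, Tjp3 was at 168, 184 and 189 CPM in Cldn2KO controls and at 191, 242 and 226 CPM in recovery. It lay higher in every recovery library, but its log2 fold change of 0.28 (95% interval 0.03 to 0.54) did not pass (edgeR adjusted p = 0.116). Tjp1 was at 183, 196 and 122 CPM in controls and at 121, 121 and 115 CPM in recovery, a log2 fold change of -0.49 (95% interval -0.88 to -0.10, edgeR adjusted p = 0.0704). Cdh1 was at 1126, 1070.0 and 930.0 CPM and then at 571, 827 and 874 CPM, with a log2 fold change of -0.46 (95% interval -0.92 to 0.0028, edgeR adjusted p = 0.156). Both lay lower in all 3 recovery libraries. DESeq2 called 3 of the 9 genes and limma-voom 5, against 23.9% and 33.8% of all genes. In all, 5 of the 9 genes had groups that did not overlap, 3 lower and 2 higher, against 40.3% of all genes.

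Every Cldn2KO control was high and every Cldn2KO recovery library low in posterior Hox genes, so treatment and Hox state cannot be told apart within this genotype. Under the Hoxb13 covariate neither call held (adjusted p = 0.778 for Cgn and 0.382 for Marveld3), while the log2 fold change was 0.23 for Cgn, against 0.44 without the covariate, and -0.51 for Marveld3, against -0.63. Marveld3 was called on leaving out each library. Cgn lost its call without any 1 library (0.0781 to 0.169) except Cldn2KO recovery replicate 1. Smooth muscle markers summed to 8533 to 11439 CPM in Cldn2KO controls and to 1025 to 1619 CPM in recovery. Fibroblast markers summed to 413 to 664 and then 126 to 179.5 CPM, with 3 of 6 called lower (median -1.90), and of 7 leukocyte markers 2 were called lower and 1 higher. Their part was not tested.

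**Figure D2:**
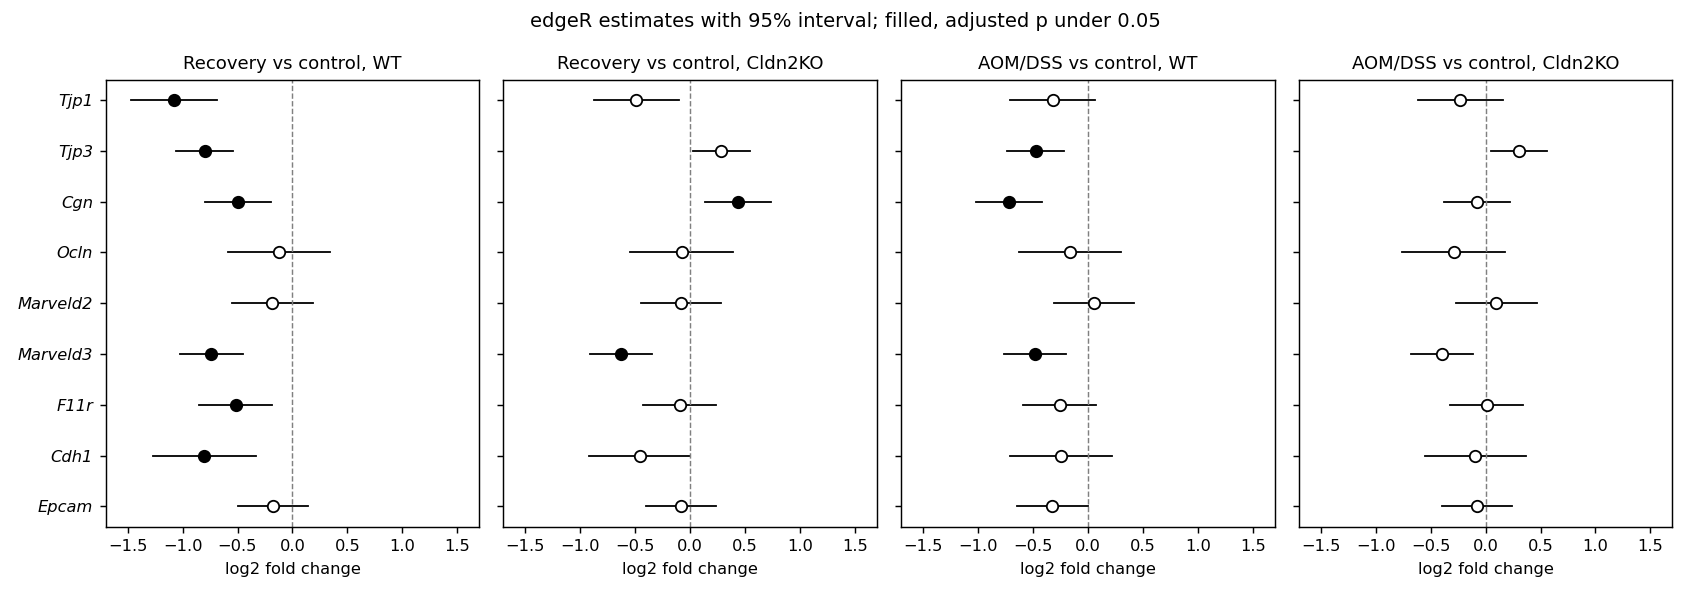
Log2 fold change (horizontal axis) of the 9 genes for recovery or AOM/DSS against the control of the same genotype. Lines are 95% intervals from edgeR and filled circles passed the test. In WT recovery 6 circles are filled and all lie left of 0, in Cldn2KO recovery Cgn lies right of 0 and Marveld3 left, in WT AOM/DSS 3 are filled and in Cldn2KO AOM/DSS none.

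Side by side in recovery, the plaque gene Cgn was the 1 of the 9 genes called between genotypes. It was higher in Cldn2KO, at 185, 241 and 213 CPM against 151, 115 and 134 CPM in WT, or 1.60 times. No library of one genotype reached the other's range, and the log2 fold change was 0.68 (SE 0.142, edgeR adjusted p = 0.0418). Over all genes 0.974% were called in either direction. Tjp3 lay just short of the test at 1.44 times the WT level (log2 fold change 0.53, 95% interval 0.27 to 0.79, edgeR adjusted p = 0.0502), and its groups, 191, 242 and 226 against 159, 151 and 145 CPM, did not overlap.

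Tjp1 was at 121, 121 and 115 CPM in Cldn2KO against 80.7, 67.8 and 79.1 CPM in WT recovery. The Cldn2KO libraries were close to each other and all above WT, with a log2 fold change of 0.64 (95% interval 0.26 to 1.03, edgeR adjusted p = 0.0764). F11r, at 237, 242 and 259 against 203, 168 and 202 CPM, was the remaining gene without overlap (log2 fold change 0.37, 95% interval 0.03 to 0.70, edgeR adjusted p = 0.205). The 4 genes without overlap all lay higher in Cldn2KO, against 12.3% of all genes. The median log2 difference was 0.37 for the 9 genes and 0.0042 over all genes, and 8 of the 9 were positive, Epcam being the exception at -0.04.

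All 6 recovery libraries shared the low Hox state. Within the pair of libraries low in Xist, replicate 1 of each genotype, the log2 difference was 0.29 for Cgn, 0.26 for Tjp3 and 0.58 for Tjp1, and within the 4 libraries high in Xist it was 0.87, 0.66 and 0.68. In the same order it was 0.23 and 0.44 for F11r, -0.19 and 0.67 for Cdh1, 0.75 and 0.0047 for Ocln, 0.55 and 0.065 for Marveld3, 0.26 and -0.029 for Marveld2, and 0.062 and -0.078 for Epcam, with no test. The Cgn call was lost without WT recovery replicate 2 (adjusted p = 0.172) or 3 (0.0751) or Cldn2KO recovery replicate 2 (0.216), and under the Xist covariate (0.0674), where the log2 fold change was 0.67. Tjp3 was called without Cldn2KO recovery replicate 1 (0.0218). DESeq2 called Cgn, Tjp3 and Tjp1, as did limma-voom, where these tools called 9.69% and 11.2% of all genes. Leukocyte markers summed to 43.1 to 49.1 CPM in Cldn2KO recovery against 118 to 165 CPM in WT recovery, while smooth muscle markers overlapped (1025 to 1619 and 886 to 2438 CPM). The leukocyte sum was carried by the plasma cell gene Jchain (13.3 to 19.4 against 86.6 to 122 CPM, the 1 of 7 markers called), and 2 of the 7 went the other way, with a median log2 difference of -0.36. Columnar epithelial markers were themselves mostly higher in Cldn2KO recovery, 10 of 11 with a median log2 difference of 0.38 and none called, close to the median of the 9 genes. Enteric neuron and glia markers were positive for 6 of 6 genes (median 0.50, none called) and their sums did not overlap, with medians of 30.5 CPM in Cldn2KO and 21.2 CPM in WT. The part of these differences in the plaque gene levels was not tested.

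The response to recovery differed between genotypes for Tjp3. It fell in WT and did not in Cldn2KO, and the difference of the 2 log2 fold changes was 1.08 (SE 0.172, 95% interval 0.72 to 1.45, edgeR adjusted p = 0.0272). It was the 1 of 9 genes called in this test, where 22 genes or 0.13% of all genes were. Cgn came next with a difference of 0.93 (95% interval 0.51 to 1.36, edgeR adjusted p = 0.064), and Tjp1 followed with 0.59 (95% interval 0.04 to 1.14, edgeR adjusted p = 0.238). For Ocln, Marveld2, Marveld3 and Epcam the difference lay between 0.04 and 0.11, with intervals from -0.62 to 0.70.

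The Tjp3 difference is made up of a log2 fold change of Cldn2KO against WT of -0.55 in controls and 0.53 in recovery. All recovery libraries were low in posterior Hox genes and all Cldn2KO controls high, so treatment and Hox state cannot be told apart in Cldn2KO. The Tjp3 difference was 1.04 under the Hoxb13 covariate (edgeR adjusted p = 0.0462), which WT control replicate 2 alone identifies. Without that library it was 1.05 (0.0459). The columnar epithelial markers had a median difference of 0.53 between the recovery responses, with none of the 11 called, and their part was not tested. The size for Tjp3 stayed between 1.01 and 1.18 on leaving out each of the 12 libraries, but the adjusted p ran from 0.0069 to 0.14. The call was lost without WT control replicate 1 (0.0705), Cldn2KO control replicates 1 (0.14), 2 (0.0869) or 3 (0.0789), WT recovery replicates 1 (0.0596), 2 (0.0765) or 3 (0.109), or Cldn2KO recovery replicates 2 (0.107) or 3 (0.062). It was also lost with no filter on low counts (0.0534), under the Xist covariate (0.0553) and with only the groups compared (0.0887), at differences of 1.04 to 1.09. DESeq2 and limma-voom called both Tjp3 and Cgn here, against 6.44% and 10.4% of all genes.

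**Figure D3:**
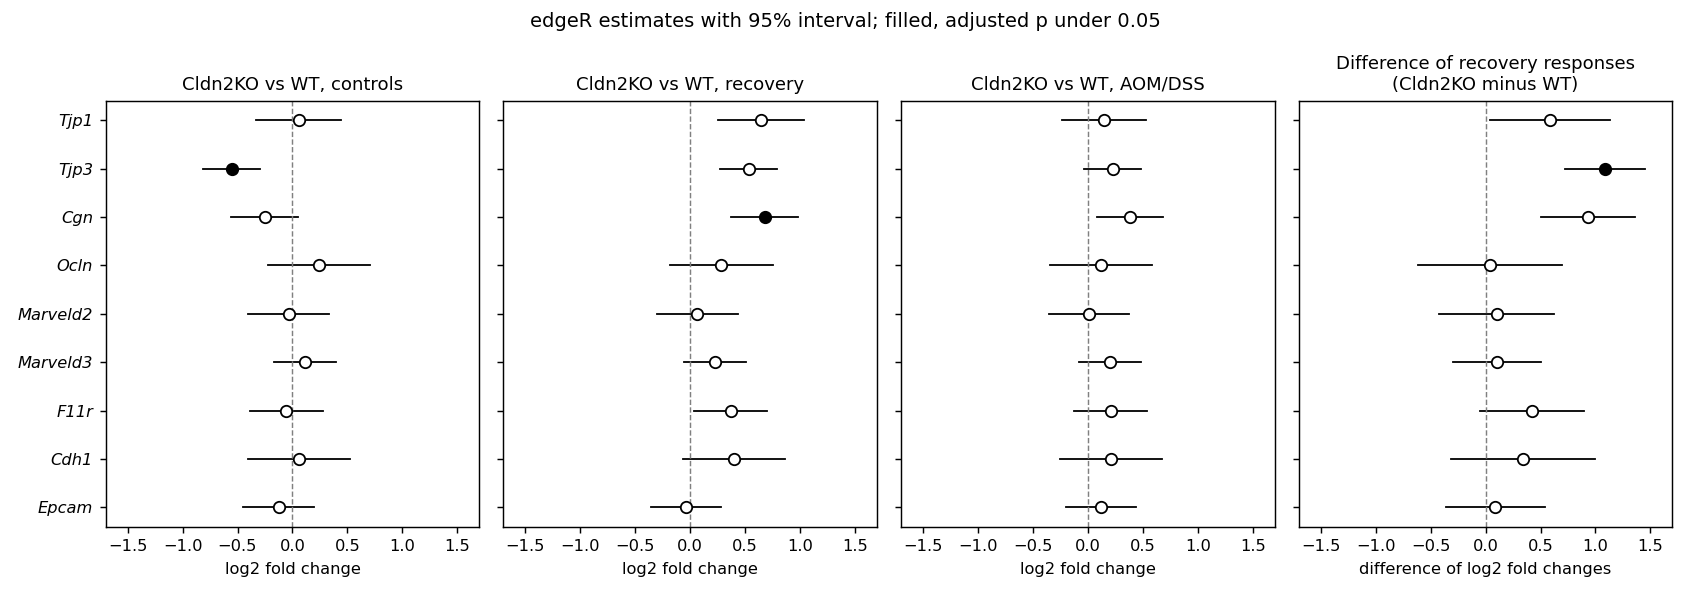
Log2 fold change of Cldn2KO against WT (horizontal axis) for the 9 genes in controls, recovery and AOM/DSS, and the difference between the genotypes' recovery responses. Lines are 95% intervals from edgeR and filled circles passed the test. Tjp3 lies at -0.55 in controls and at 0.53 in recovery, and its difference of 1.08 is filled.

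Among untreated mice, Tjp3 was the 1 gene of 9 that differed between genotypes, where 1.17% of all genes were called. It was at 168, 184 and 189 CPM in Cldn2KO controls and at 264, 281 and 249 CPM in WT controls. The knockout libraries lay at 0.681 of the WT level with no overlap, and the log2 fold change was -0.55 (SE 0.122, edgeR adjusted p = 0.0362). Cgn and Epcam were lower in all 3 Cldn2KO controls without being called, with log2 fold changes of -0.25 (95% interval -0.55 to 0.05) and -0.13 (95% interval -0.45 to 0.19). These 3 genes without overlap compare with 10.7% of all genes lower in that way.

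Tjp1, Ocln and Cdh1 each had a wide spread in the controls, and their ranges overlapped between genotypes. The median log2 difference of the 9 genes was -0.03, against -0.0055 over all genes. The Tjp3 call was lost without WT control replicates 1 (adjusted p = 0.0608) or 2 (0.0766) or Cldn2KO control replicates 1 (0.221) or 2 (0.152), while the log2 fold change stayed between -0.60 and -0.50. It was also lost with upper-quartile factors (0.0528), no filter on low counts (0.105), the Hoxb13 covariate (0.0935), the Xist covariate (0.0585), the replicate block (0.0583) and only the groups compared (0.127), at log2 fold changes of -0.56 to -0.51. DESeq2 and limma-voom called it, with 4.07% and 14.9% of all genes. Among the libraries high in posterior Hox genes, which leaves out WT control replicate 2, the Cldn2KO mean of Tjp3 relative to WT was -0.51 on the log2 scale. Leukocyte markers summed to 31.8 to 154 CPM in Cldn2KO controls against 776 to 915 CPM in WT controls, most of it Jchain (11.4 to 84.8 against 689.5 to 824 CPM), with 2 of the 7 called lower, and smooth muscle markers to 8533 to 11439 against 4267 to 6310 CPM. Their part in the Tjp3 difference was not tested.

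After AOM/DSS, 3 of the 9 genes were lower in WT mice, where 6.58% of all genes were called lower and 10.4% in either direction. They were Tjp3, Cgn and Marveld3. These 3 were also lower in WT recovery, but both comparisons use the same WT controls. Cgn went from 180.3, 207 and 177 CPM to 109, 131 and 104 CPM. This was its lowest group, at 0.608 of the control level (log2 fold change -0.72, SE 0.142, edgeR adjusted p = 0.0125). Tjp3 went from 264, 281 and 249 CPM to 184, 198 and 189 CPM, or -0.48 on the log2 scale (SE 0.122, edgeR adjusted p = 0.0286). Marveld3, from 114, 106 and 117 CPM to 80.6, 82.1 and 78.5 CPM, changed by -0.48 on the log2 scale (SE 0.133, edgeR adjusted p = 0.0356).

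Epcam was lower in all 3 AOM/DSS libraries (1929.5, 1911 and 1821 against 2322, 2417 and 2336 CPM) and was not called (log2 fold change -0.32, 95% interval -0.64 to -0.0015, edgeR adjusted p = 0.165). With it, 4 genes lay lower without overlap, against 17.3% of all genes. Tjp1, at 123, 137 and 125 CPM, overlapped the WT controls, whose replicate 2 stood at 129 CPM. Leaving out each library in turn, Cgn lost its call only without WT AOM/DSS replicate 3 (adjusted p = 0.066), Marveld3 lost it each time (0.0646 to 0.118), and Tjp3 each time (0.0501 to 0.102) but for WT control replicate 3. Leaving out WT control replicate 2, which made all libraries high in posterior Hox genes, gave -0.66 for Cgn (adjusted p = 0.0401), -0.45 for Tjp3 (0.087) and -0.54 for Marveld3 (0.0647). Smooth muscle markers summed to 628 to 3299 CPM in WT AOM/DSS against 4267 to 6310 CPM in WT controls, and columnar epithelial markers to 11742 to 17303 against 20815 to 23648 CPM, with 6 of the 11 called lower. Leukocyte markers summed to 251 to 492 against 776 to 915 CPM (none called), endothelial markers to 27.6 to 40.4 against 50.4 to 67.7 CPM (none called), and enteric neuron and glia markers to 10.1 to 23.8 against 24.7 to 43.9 CPM, with 3 of 6 called lower and a median log2 fold change of -1.56. Stratified squamous markers summed to 9.97 to 60.7 CPM against 4.78 to 11.5 CPM, and 7 of the 7 tested had positive log2 fold changes (median 2.56, none called). Their part was not tested.

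In Cldn2KO mice none of the 9 genes was called after AOM/DSS by edgeR, where 0.195% of all genes were. At an unadjusted p under 0.05 the count was 2, Tjp3 and Marveld3, against 15.2% of all genes, and limma-voom called the same 2 genes (18.1% of all genes) and DESeq2 none (3.56%). Tjp3 went from 168, 184 and 189 CPM to 227, 201 and 239 CPM, above every control (log2 fold change 0.30, 95% interval 0.05 to 0.56, edgeR adjusted p = 0.251). Marveld3 went from 116, 134 and 116 CPM to 97.6, 83.5 and 96.3 CPM, under every control (log2 fold change -0.40, 95% interval -0.68 to -0.12, edgeR adjusted p = 0.184). These were the 2 genes of 9 without overlap, against 29.1% of all genes. Stratified squamous markers summed to 10.8 to 66.6 CPM here against 10.2 to 13.4 CPM in Cldn2KO controls, 6 of 7 tested being positive (median 2.33, none called). Smooth muscle markers summed to 2596 to 6552 CPM against 8533 to 11439 CPM (10 of 10 negative, median -1.21, none called) and leukocyte markers to 197 to 368 against 31.8 to 154 CPM (6 of 7 positive, median 0.18, none called). Their part was not tested. The difference between the genotypes' AOM/DSS responses was 0.78 for Tjp3 (95% interval 0.42 to 1.14, edgeR adjusted p = 0.298) and 0.64 for Cgn (95% interval 0.21 to 1.07, edgeR adjusted p = 0.487). By edgeR 0.0118% of all genes and none of the 9 were called in that test, with 2 of the 9 and 8.44% of all genes at an unadjusted p under 0.05. DESeq2 and limma-voom each called 1, Tjp3, against 0.525% and 1.7% of all genes.

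Between Cldn2KO and WT colon after AOM/DSS, none of the 9 genes was called by edgeR, which called 1 gene or 0.0059% of all genes. At an unadjusted p under 0.05 the count was 1, Cgn, against 5.6% of all genes, and neither DESeq2 nor limma-voom called any (0.0251% and 0.0059% of all genes). The 9 log2 differences were all positive, with a median of 0.20 against -0.0042 over all genes. Columnar epithelial markers lay the same way for 10 of 11 genes (median 0.34), as did smooth muscle markers for 10 of 10 (1.09) and enteric neuron and glia markers for 6 of 6 (0.86), while leukocyte markers lay lower for 7 of 7 (-0.50), none of them called. Relative to the columnar markers of the same library, by log2 CPM, the groups overlapped for all 9 genes, with Cgn at 0.10 and the other 8 between -0.30 and -0.063, while 21.5% of all genes lay apart by that measure. The part of these markers was not tested. Cgn was at 139.5, 153 and 156 CPM in Cldn2KO and at 109, 131 and 104 CPM in WT, the largest difference of the 9 (0.39, 95% interval 0.08 to 0.69, edgeR adjusted p = 0.862). Cgn, Tjp3 and Marveld3 were higher without overlap, against 4.92% of all genes. The 3 WT AOM/DSS libraries were low in Xist and 2 of the 3 Cldn2KO ones high. The Cldn2KO library low in Xist, replicate 1, differed from the WT mean by 0.29 for Cgn, 0.26 for Tjp3 and 0.28 for Marveld3 on the log2 scale, and by 0.025 for Tjp1, -0.091 for Ocln and -0.034 for Marveld2, with no test for 1 library. Averaged over the 3 treatments, no gene of the 9 was called by edgeR (1.5% of all genes were), 3 had an unadjusted p under 0.05 (Tjp1, Cgn and Marveld3, against 18.2% of all genes), DESeq2 called 1 (5.34% of all genes) and limma-voom 3 (11.9%). In that average the opposite differences of Tjp3 in controls and recovery leave 0.07 (95% interval -0.08 to 0.22).

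Ocln, Marveld2 and Epcam passed the edgeR test in none of the 10 comparisons, and limma-voom called Epcam in WT recovery (-0.24, adjusted p = 0.043), 1 of 7 genes of the 9 it called there against 47.7% of all genes. DESeq2 called 6 there, against 27.2%. Ocln, the founding MARVEL protein of the tight junction, ranged from 120.0 to 227 CPM and spread so widely within groups that no pair of groups next to each other in mean level lay apart. In recovery it was at 135, 120.4 and 172 CPM in WT and at 227, 157 and 136 CPM in Cldn2KO, and its log2 differences over the 10 comparisons ran from -0.29 to 0.28 with intervals reaching -0.78 and 0.75. Marveld2 ranged from 29.1 to 48.3 CPM. Its log2 differences ran from -0.18 to 0.10, with intervals from -0.55 to 0.62.

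Epcam was the steadiest of the 9 genes. It was highest in WT controls (2322, 2417 and 2336 CPM) and next in Cldn2KO controls (2095, 2239.6 and 2147 CPM), and those 2 groups lay apart. The other 4 groups, from 1815 to 2434 CPM, overlapped. Its log2 differences ran from -0.32 to 0.25, with intervals from -0.64 to 0.70. For Cdh1, the E-cadherin gene, 5 of 5 neighbouring pairs of groups in the order of mean level overlapped, as they did for F11r, Ocln and Marveld2.

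Set against the columnar epithelial markers of the same library, the genes were compared once more. The measure was the log2 CPM of a gene minus the mean log2 CPM of the 11 markers, with no test. In WT recovery Tjp1 was lower by this measure (-0.78), as were Tjp3 (-0.52), Marveld3 (-0.47), F11r (-0.24) and Cgn (-0.22), each without overlap, and Cdh1 overlapped (-0.51). Of all genes 11.1% were lower without overlap by the same measure, against 5 of the 9. With the keratins Krt8, Krt18 and Krt19 alone as the reference, Cgn (0.03) and F11r (0.015) turned direction. Between genotypes in recovery, Tjp1 (0.34), Tjp3 (0.22) and Cgn (0.37) were higher in Cldn2KO without overlap, 3 of 9 genes against 2.9% of all genes. Epcam was lower without overlap (-0.33), 1 of 9 against 24.4%. In Cldn2KO controls Tjp3 was lower than in WT controls (-0.35), 1 of 9 genes against 5.24% of all genes. Marveld3 (0.32) and F11r (0.15, but -0.042 against the keratins alone) were higher, 2 of 9 against 24.2%. In Cldn2KO recovery Marveld3 (-0.85), Cdh1 (-0.70), F11r (-0.32) and Epcam (-0.31) were lower than in Cldn2KO controls without overlap, though F11r (0.16) and Epcam (0.17) were positive against the keratins alone, and Cgn (0.21) overlapped. These were 4 of 9, against 28.7% of all genes lower in that way.

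After AOM/DSS the measure gave another order. The epithelial markers were themselves lower in WT, with 6 of 11 called (median log2 fold change -0.72). In Cldn2KO none was called (median -0.18, 8 of 11 negative). Relative to the markers, Ocln (0.45), Marveld2 (0.68), Cdh1 (0.38) and Epcam (0.28) lay higher in WT AOM/DSS than in WT controls without overlap, although Epcam was at -0.0015 against the keratins alone, and Tjp3 (0.13), Marveld3 (0.12) and Cgn (-0.12) overlapped the controls. The 4 genes without overlap compare with 49.7% of all genes higher in that way. In Cldn2KO AOM/DSS, Tjp3 was higher (0.42), 1 of 9 genes against 21.1%. Of the 11 markers, Cdx2 varies along the gut and ranged from 13.6 to 337 CPM.

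**Figure D4:**
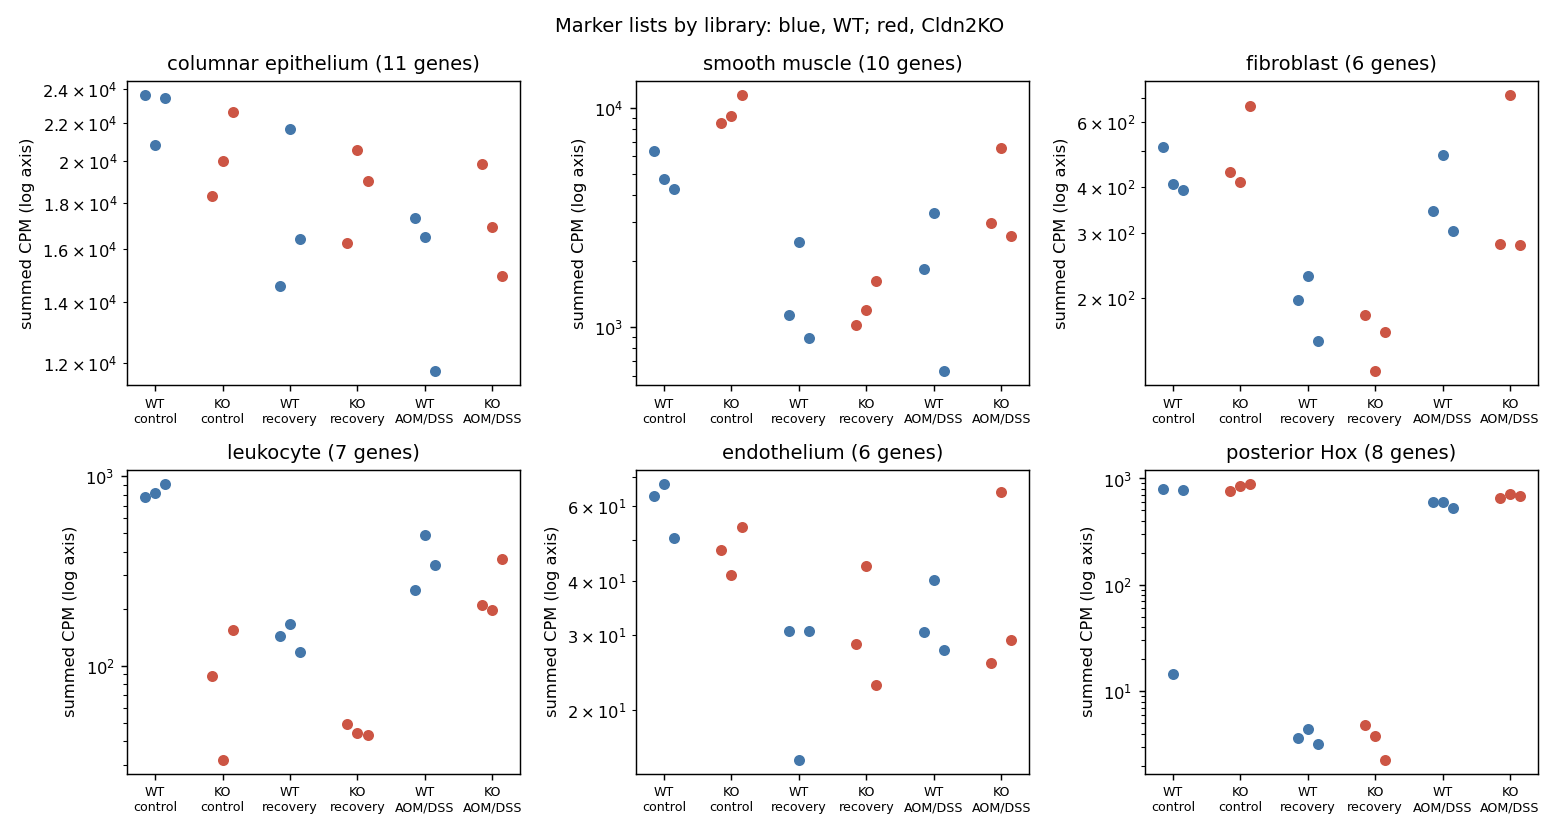
Summed CPM (log axis) of 6 marker lists in each library, by group (blue, WT; red, Cldn2KO). Columnar epithelial markers stay within 11742 to 23648 CPM, smooth muscle markers are lowest in recovery and WT AOM/DSS, and posterior Hox genes are under 15 CPM in recovery and in WT control replicate 2.

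Other junction genes, in lists chosen with earlier results of these data known, gave the wider setting. In WT recovery, where 12.2% of all genes were called lower and 22.2% in either direction, 6 of the 21 other plaque genes were lower and none higher, with a median log2 fold change of -0.54. Among them were Arhgef2 (-1.31), Amotl1 (-1.23) and Arhgef11 (-0.997). Of the 14 adherens junction genes 5 were lower and none higher (median -0.72), including Jup (plakoglobin, -0.96), Lmo7 (-0.92) and Plekha7 (-0.83). Of the 9 desmosome genes, which anchor keratin filaments, 4 were lower and 1 higher (median -0.71), with Pkp1 at -1.32, Dsp (desmoplakin) at -1.25 and Pkp3 at -0.71 among the lower and Pkp2 at 0.60 the higher.

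Jup, for example, went from 185 to 206 CPM in WT controls to 83.4 to 112 CPM in WT recovery, and Dsp from 430.3 to 499 CPM to 156 to 219.8 CPM. Of the other tight junction membrane genes, 3 of 9 were lower, namely Clmp (-2.10), Marveld1 (-1.45) and Jam3 (-1.21). Among claudins 2 of the 12 tested of 21 listed were lower, Cldn14 (-2.91, at most 4.33 CPM in either group) and Cldn7 (-0.95), and none higher. Cldn2 itself was not in that list, and stood at 44.5 to 131 CPM in WT controls and at 309 to 504 CPM in WT recovery. Of 5 genes that bind or cleave the Epcam protein or control that cleavage, 2 were lower: Spint1 (-0.91), the matriptase inhibitor, and St14 (-0.55), matriptase itself. Of 15 alternative settings, Pkp3 was called in 7 and St14 in 6.

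In Cldn2KO recovery, where 19.4% of all genes were called, the same lists were counted. None of the 14 adherens genes was lower and 2 were higher, Nectin1 (0.93) and the intestinal cadherin Cdh17 (0.79). None of the 9 desmosome genes was lower either and 2 were higher, Dsc2 (1.17) and Pkp2 (0.77). Of the other plaque genes 2 of 21 were lower, Amotl1 (-1.65) and Cgnl1 (-1.36). Membrane genes Clmp (-2.46), Marveld1 (-2.23) and Jam3 (-1.52) were lower, with 1 of that list of 9 higher, Ildr1 (1.48), and among claudins Cldn15 was higher (1.92) and Cldn14 lower (-3.48). Prss8 (prostasin), 1 of the 5 genes around Epcam, was higher (0.79). Cgnl1 and Cldn15 were called in 7 of 15 alternative settings.

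Between genotypes in recovery, 3 of the 82 tested entries of the lists of other junction genes and their regulators were called, all higher in Cldn2KO, 1 in each of 3 lists, where 0.974% of all genes were called in either direction. Dsp was at 328 to 484 CPM in Cldn2KO against 156 to 219.8 CPM in WT (log2 fold change 1.12, SE 0.238, edgeR adjusted p = 0.0418). Jup was at 139 to 237 CPM against 83.4 to 112 CPM (0.96, SE 0.218, edgeR adjusted p = 0.0484). Patj, a polarity scaffold of the tight junction, was at 61.8 to 71.6 CPM against 42.8 to 44.7 CPM (0.57, SE 0.124, edgeR adjusted p = 0.0418). Of 15 alternative settings, Dsp was called in 9, Patj in 8 and Jup in 6. The list medians were 0.41 for other plaque genes, 0.46 for adherens genes, 0.51 for desmosome genes, 0.10 for other membrane genes and 0.15 for claudins, against 0.0042 over all genes. No gene of these lists was called for the difference of recovery responses by edgeR, nor between genotypes in controls or after AOM/DSS.

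The responses to recovery can be read gene by gene, each against the controls of its own genotype. Those controls were not alike, as WT control replicate 2 was low in posterior Hox genes and no Cldn2KO control was. Between controls, 9 of 9 desmosome genes (median -0.47) and 11 of 14 adherens genes (-0.31) lay lower in Cldn2KO, with none called. Other plaque genes lay higher for 11 of 21 (median 0.01). The part of the controls in these responses was not tested. The recovery log2 fold change was larger in Cldn2KO than in WT for 9 of the 9 junction genes. For Ocln, Marveld2 and Epcam the sign of this difference changed on leaving out 1 library. The log2 fold change was also larger in Cldn2KO for 16 of 21 other plaque genes, 13 of 14 adherens genes and 9 of 9 desmosome genes. It was larger for 7 of 12 claudins, 4 of 9 other membrane genes and 53% of all genes tested. Smooth muscle markers lay the other way for 10 of 10 genes, with a median difference of -1.11, and fibroblast markers for 5 of 6 (-0.69). Lying the same way as the junction genes were columnar epithelial markers for 10 of 11 (median 0.53), leukocyte markers for 7 of 7 (1.08), endothelial markers for 6 of 6 (0.52) and enteric neuron and glia markers for 6 of 6 (0.46). None of these markers was called by edgeR for the difference, and their part was not tested.

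**Figure D5:**
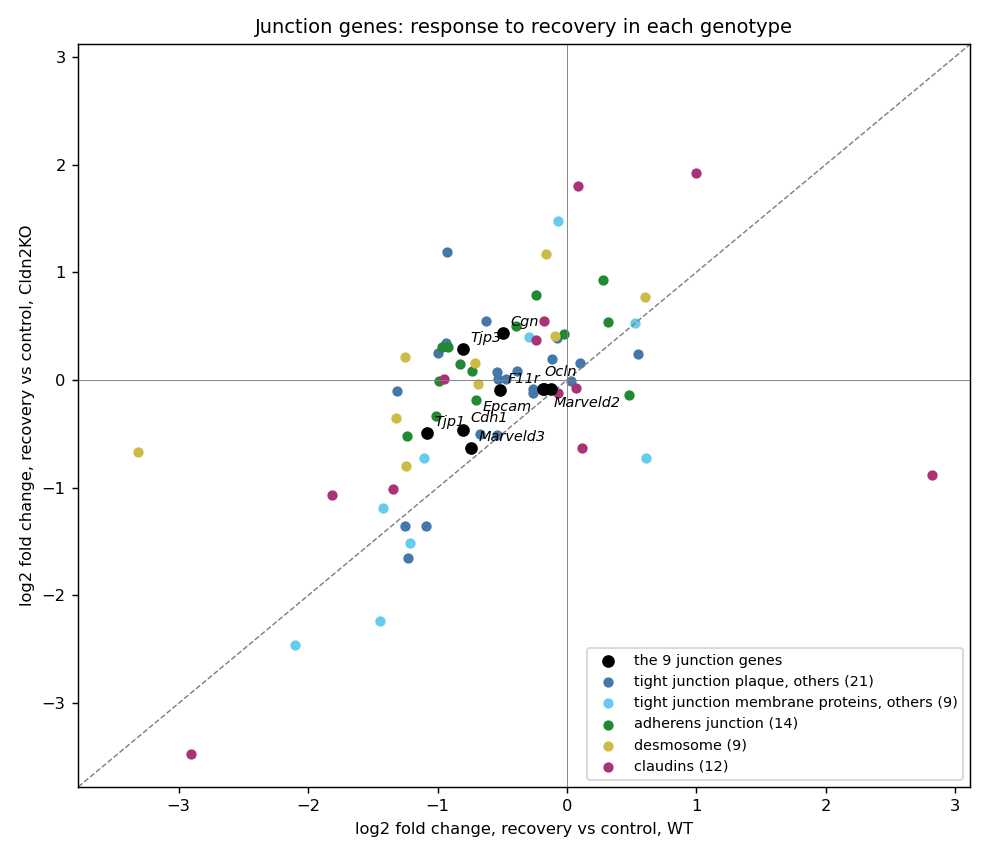
Log2 fold change of recovery against control in WT (horizontal axis) and in Cldn2KO (vertical axis) for junction genes, coloured by list. The dashed line marks equal responses. The 9 genes (black) lie above it, with Ocln nearest to it (a difference of 0.04) and Tjp3 (1.08) and Cgn (0.93) farthest from it.

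In WT AOM/DSS, where 10.4% of all genes were called, the calls were spread over the lists. Among adherens genes 5 of 14 were lower and 1 higher, with Cdh2 (-2.05, at most 5.11 CPM in every library of the 2 groups) and Nectin2 (-0.75) lower and Nectin4 (2.67) higher. Other plaque genes gave 1 higher, Amot (1.16), and 1 lower, Dnmbp (-0.87), of 21. Membrane genes Marveld1 (-1.49) and Ildr1 (-1.29, of tricellular contacts) were lower, as were claudins Cldn23 (-1.11) and Cldn7 (-0.76), while Cldn12 (0.43) was higher. Spint1 (-0.92) and Spint2 (-0.80), both inhibitors of matriptase, were lower. No desmosome gene was called. Of 15 alternative settings, Nectin4 was called in 7, and Amot and Cldn12 in 6 each.

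Factors known to act on these genes were also listed. All 5 tested repressors of Cdh1 were lower in WT recovery, against 12.2% of all genes, for example Zeb2 (-1.85), Snai2 (-1.62) and Snai1 (-2.58, from a mean of 0.560 to 0.0801 CPM), and 4 of 5 in Cldn2KO recovery, where 19.4% were called in either direction, for example Twist1 (-1.85) and Zeb1 (-1.38). Cdh1 fell in the same WT comparison. These repressors are transcribed mainly in mesenchymal cells, whose markers Col1a1 (-1.85) and Col3a1 (-1.82) were also lower in WT recovery, and their part was not tested. Of 7 listed regulators of the epithelial state, Ovol2 was lower in both WT (-1.40) and Cldn2KO recovery (-1.24). Grhl1 (2.50) and Esrp2 (0.46) were higher in Cldn2KO recovery, and were called in 8 and 6 of 15 alternative settings. Ovol1 was lower after AOM/DSS in WT (-1.79) and in Cldn2KO (-1.80), where 10.4% and 0.195% of all genes were called.

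Genes other than the 9 were ranked by how closely they followed the mean of the 9 genes over the 18 libraries, as a description. Adipor1 (Pearson r = 0.913), Arhgef16 (0.912), Ctnna1 (0.912), Arhgap17 (0.892) and Syk (0.891) came first. Ctnna1 encodes alpha-catenin, which links cadherins to actin. For single genes the closest were Sel1l for Tjp1 (0.934), Mst1r for Tjp3 (0.907), Dnmbp for Cgn (0.933), Pik3r1 for Ocln (0.867) and Adck1 for Marveld2 (0.853). Mxd1 came first for Marveld3 (0.936), Dync1li1 for F11r (0.883), Rhoa for Cdh1 (0.930) and Misp for Epcam (0.886).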

How the data were processed

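The deposited table gave gene counts for 18 colon libraries, each in 2 lanes. Per the labels, the authors used HISAT2, Subread and featureCounts on GRCm38, whereas the study's methods name TopHat2 with featureCounts, so the aligner is uncertain. Strandedness and the annotation release are not given in the sources used here. Lane counts were summed, and totals were 17.6 to 27.4 M. Lanes differed by 1.08 to 1.18 chi-square units per degree of freedom and replicate pairs by at least 11.9. Gene names came from GENCODE M21 for 47224 of 47729 identifiers.

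Counts were scaled by TMM and tested with edgeR 4.0.16 (quasi-likelihood, robust, 1 mean for each of the 6 groups, R 4.3.3) over the 16937 genes kept by filterByExpr, in 10 comparisons, with Benjamini-Hochberg adjustment over all genes tested. Called means an adjusted p under 0.05, and intervals are 95%. CPM are TMM-scaled, RPKM use exonic length, and log2 CPM use a prior count of 2. The common dispersion was 0.0993, a coefficient of biological variation of 0.315. On simulated counts the script was tested for recovery of known changes.

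Alternatives were other size factors and filters, DESeq2 1.42.0, limma 3.58.1 (voom), covariates for Hoxb13 or Xist over 10 CPM, only the groups compared, a replicate block and each library left out. Shares of all genes called by DESeq2 are of those it gave an adjusted p. All 9 genes were named, with up to 3 called genes of the largest change per list and comparison, and the genes most like them by Pearson r. The 9 genes and the lists were chosen with earlier results of these data known. Pkp2 in WT recovery and Ildr1 in Cldn2KO recovery were named after their values were seen. Of the called list genes that this rule would name, 1 is not reported here.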

Additional observations from a re-analysis of the deposited data

Results flagged for a closer look

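The recovery response of Tjp3 differed between genotypes by an interaction test, with a difference of log2 fold changes of 1.08 (SE 0.172, edgeR adjusted p = 0.0272). The log2 fold change was -0.80 in WT and 0.28 in Cldn2KO, and the latter did not pass the test on its own.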

How the results depend on the processing

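Of the 14 calls made on the 9 genes, 2 were kept in every alternative run (Tjp3 and Marveld3 in WT recovery) and 4 on leaving out each library in turn (these 2, Tjp1 in WT recovery and Marveld3 in Cldn2KO recovery). Over all log2 fold changes of the 9 genes, 1396 alternative values kept their direction and side of the threshold, 80 lost and 25 gained a call, and 65 changed sign. With the library numbers as a replicate block, 0 of the 9 genes were called between control genotypes (Tjp3 adjusted p = 0.0583). Same-numbered controls correlated at 0.158, 0.00234 and 0.0794 in their deviations from group means, so the numbers were not shown to pair the samples. With 3 libraries a group and a wide spread of Ocln and Cdh1, small differences were not detectable.

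Counts of the 9 genes called by edgeR changed as follows, and the cause was not tested. Between control genotypes 0 were called with upper-quartile factors, no filter on low counts, the Hoxb13 or Xist covariate, the replicate block or only the groups compared. Between recovery genotypes 0 were called with no filter, the Xist covariate or only the groups compared, 2 with at least 1 CPM in 3 libraries or the Hoxb13 covariate, and 3 by DESeq2 or limma-voom. Over all treatments 1 was called by DESeq2 and 3 by limma-voom. In WT recovery 3 were called with the Hoxb13 covariate or only the groups compared and 7 by limma-voom. In Cldn2KO recovery 1 was called with no filter, at least 1 CPM in 3 libraries, the Xist covariate or only the groups compared, 0 with the Hoxb13 covariate and 5 by limma-voom. In WT AOM/DSS 1 was called with no filter or the Hoxb13 covariate and 0 with only the groups compared, and in Cldn2KO AOM/DSS 2 were called by limma-voom. For the difference of recovery responses 0 were called with no filter, the Xist covariate or only the groups compared and 2 by DESeq2 or limma-voom, and for that of AOM/DSS responses 1 by DESeq2 or limma-voom. Leaving out 1 library gave 0 to 1 between control genotypes, 0 to 2 between recovery genotypes, 3 to 6 in WT recovery, 1 to 2 in Cldn2KO recovery, 0 to 2 in WT AOM/DSS and 0 to 2 for the difference of recovery responses.

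Signs changed only for values that were not called. Under the Hoxb13 covariate, log2 fold changes were -0.078 for Tjp1 and -0.12 for Cdh1 between control genotypes, -0.037 for Marveld2 over all treatments, 0.25 for Ocln and 0.18 for Marveld2 in WT recovery, 0.44 for Ocln, 0.44 for Marveld2 and 0.15 for Cdh1 in Cldn2KO recovery, -0.097 for Marveld2 in WT AOM/DSS and 0.025 for Ocln in the difference of AOM/DSS responses. The Xist covariate gave -0.025 for Marveld2 between AOM/DSS genotypes. With upper-quartile factors the values were 0.0066 for Marveld2 between control genotypes, -0.021 for F11r in Cldn2KO AOM/DSS and -0.034 for Ocln in the difference of recovery responses, and with at least 1 CPM in 3 libraries -0.0032 for F11r in Cldn2KO AOM/DSS. By limma-voom they were -0.026 for Cdh1 between control genotypes, 0.026 for Epcam between recovery genotypes, -0.052 for Marveld2 in WT AOM/DSS and -0.065 for Ocln in the difference of recovery responses, which was -0.0078 with only the groups compared. Relative to keratins alone, F11r stood at -0.042 between control genotypes, 0.015 in WT recovery and 0.16 in Cldn2KO recovery, Cgn at 0.034 in WT recovery, and Epcam at 0.17 in Cldn2KO recovery and -0.0015 in WT AOM/DSS.

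Leaving out 1 library moved values near 0 to either side. Between control genotypes Tjp1 ran from -0.10 to 0.22, Marveld2 from -0.21 to 0.088 and Cdh1 from -0.14 to 0.18. Between recovery genotypes Marveld2 ran from -0.011 to 0.17 and Epcam from -0.13 to 0.067, and between AOM/DSS genotypes Tjp1 from -0.020 to 0.25 and Marveld2 from -0.17 to 0.16. Over all treatments Marveld2 ran from -0.064 to 0.055 and Epcam from -0.067 to 0.016. Ocln ran from -0.29 to 0.010 in WT recovery and from -0.32 to 0.078 in Cldn2KO recovery, where Marveld2 ran from -0.16 to 0.021. Marveld2 ran from -0.12 to 0.18 in WT AOM/DSS. In Cldn2KO AOM/DSS Marveld2 ran from -0.058 to 0.27, F11r from -0.093 to 0.19, Cdh1 from -0.21 to 0.059 and Epcam from -0.16 to 0.020. In the difference of recovery responses Ocln ran from -0.20 to 0.20, Marveld2 from -0.023 to 0.26 and Epcam from -0.0026 to 0.21, and in that of AOM/DSS responses Tjp1 ran from -0.080 to 0.25, Ocln from -0.26 to 0.050 and Marveld2 from -0.12 to 0.22.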
